A study of Mus musculus with 6 samples.

Results

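NF-κB is a family of dimeric transcription factors whose subunits are encoded by Rel, Rela, Relb, Nfkb1 and Nfkb2. The expression of these 5 subunit genes was examined together with that of the IκB genes Nfkbia, Nfkbie and Nfkbiz, the kinase gene Ikbke and the ubiquitin-editing enzyme gene Tnfaip3. The 10 genes were found in the count table by matching its Ensembl gene IDs to the GENCODE vM21 symbols. They were 10 of the 21780 genes listed, and all 10 were among the 14429 protein-coding genes tested. In resting cells IκB proteins hold NF-κB dimers in the cytoplasm, and IκB kinases release them by marking the inhibitor for degradation. The canonical arm acts mainly through dimers of RelA or c-Rel with p50, the product of Nfkb1, whereas the alternative arm processes the Nfkb2 precursor p100 to p52, which pairs with RelB. Several inhibitors are themselves NF-κB target genes, which gives the pathway negative feedback, and in myeloid cells it drives cytokine and chemokine genes after microbial glucans bind Dectin-1.

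The study compared pancreatic myeloid cells of mice given whole glucan particles (WGP), a particulate β-glucan from yeast, with those of control mice. Wild-type C57BL/6 J mice of both sexes, aged 6 to 8 weeks per the study's methods, received PBS or 1 mg of WGP by intraperitoneal injection, and 7 days later viable pancreatic cells positive for CD45 and CD11b were sorted. Sequencing of polyadenylated RNA gave 3 libraries of each group, and the sex of the mice behind each library was not given in the sources used here. The study describes its samples as separate animals of a single experiment, so the p-values measure the spread between animals of that experiment. The PBS libraries held 35334645, 38419377 and 40580936 counts and the WGP libraries 38240913, 43341834 and 41990018. Raw counts of the 10 genes lay between 1932, for Ikbke in PBS replicate 3, and 51154, for Nfkbiz in the same library. Levels below are CPM, counts relative to the library total after scaling by TMM factors, and every log2 fold change is WGP over PBS with its standard error (SE). Calls rest on the quasi-likelihood test of edgeR with p-values adjusted by the Benjamini-Hochberg method over all genes tested, at a limit of 0.05, and a stricter call also asked for a log2 fold change of 1 or more in size.

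The myeloid label was checked against 10 marker genes, and none was at 0 in any library. Their summed level was 11209, 17257 and 17855 CPM in PBS replicates 1 to 3 and 25768, 24849 and 26221 CPM in WGP replicates 1 to 3. Of the 10 markers 6 were called higher and none lower by edgeR, DESeq2 and limma-voom alike, none was lower at an unadjusted p under 0.05, and Lyz2 was the most abundant. Several libraries stood apart. The B cell markers summed to 2991 CPM in PBS replicate 1, against 764 and 463 CPM in PBS replicates 2 and 3 and 219, 266 and 144 CPM in WGP replicates 1 to 3. Of these 8 markers 6 were called lower, and Cd79a was the most abundant over both groups together, though not in the WGP libraries alone. The fibroblast markers summed to 1817 CPM in WGP replicate 2, and to between 33.7 and 175 CPM in the other 5 libraries, with Col3a1 the most abundant. None of the 6 fibroblast genes was called by edgeR, DESeq2 or limma-voom, and 2 were higher in edgeR at an unadjusted p under 0.05. The Y-linked genes Ddx3y, Eif2s3y, Kdm5d and Uty summed to 233.5 CPM in PBS replicate 2 and 248 CPM in PBS replicate 3, and to at most 0.0238 CPM in the other 4 libraries, so the sex of the mice and the treatment cannot be fully told apart. In WGP replicate 1 the most frequent count above 0 was 18, and in each other library it was 1. Markers of cell subsets also differed between the groups. The 8 resident macrophage markers, of which Mrc1 was the most abundant, were all called lower, from 4033, 8007 and 10599 CPM in PBS replicates 1 to 3 to 530, 815 and 633 CPM in WGP replicates 1 to 3. Of the 8 Ly6C-high monocyte markers 4 were called higher and 1 lower, with sums of 2995, 4755 and 6466 CPM in the PBS libraries and 6992, 8195 and 6533 CPM in the WGP libraries. Fn1 was the most abundant over both groups together. In the PBS libraries it was F13a1, the marker called lower, with means of 2513 CPM in the PBS and 424 CPM in the WGP libraries. The sums therefore combine its fall with the rise of other markers. In bulk RNA, a change in the share of a cell type and a change of RNA per cell cannot be told apart, and the part of these differences in the NF-κB results was not tested.

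Of the 10 NF-κB genes 4 were higher and 4 lower in the WGP libraries. Nfkb2, Relb, Nfkbie and Ikbke rose, Rel, Nfkbia, Nfkbiz and Tnfaip3 fell, and Nfkb1 and Rela did not pass the test. Over all genes tested 14.4% were called in either direction, 7.54% higher and 6.81% lower. With the fold threshold, the same 4 genes were called higher, against 4.53% of all genes, and Rel and Nfkbiz were called lower, against 4.96% of all genes. The stricter calls of Nfkb2 (log2 fold change 0.99) and Relb (0.94) ended with library totals only, and that of Relb also without PBS replicate 3 (0.90) and with a covariate for Y-linked counts (0.70). The libraries of the groups did not overlap in 9 of the 10 genes, and Rela was the exception. Over all genes tested they did not overlap in 32%. The median log2 fold change was 0.32 over the 10 genes and -0.05 over all genes tested. The number called lower dropped to 2 without PBS replicate 2 and to 2 without WGP replicate 3, because Nfkbia and Tnfaip3 lost their calls. The median of all genes was lower by 0.10 when only library totals were used for scaling, and no direction among the 10 genes changed.

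**Figure D1:**
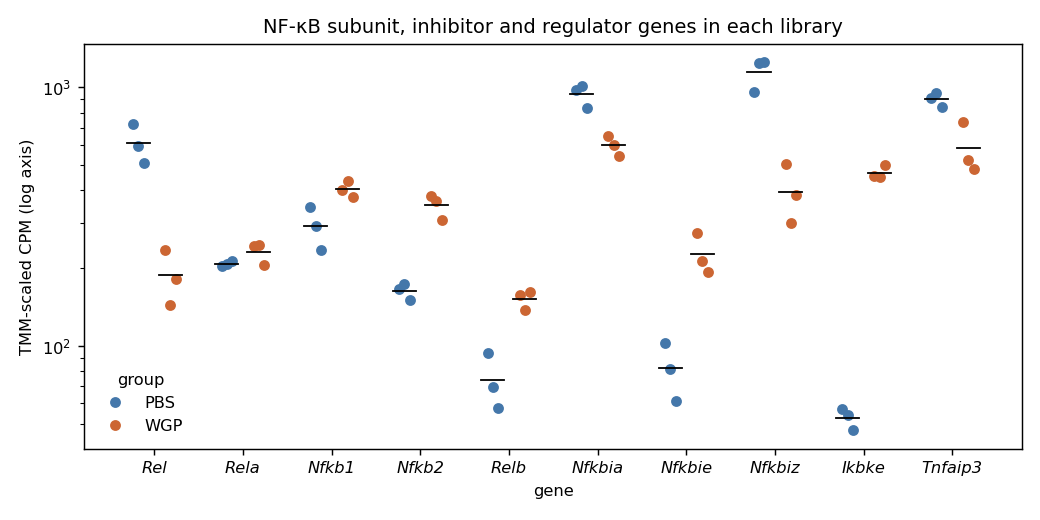
Level of each of the 10 NF-κB genes in each library, in TMM-scaled CPM on a log axis, with 1 point per library, PBS in blue, WGP in orange, and black lines at the group means (n = 3). The WGP points of Ikbke, Nfkbie, Relb, Nfkb2 and Nfkb1 lie above the PBS points, those of Rel, Nfkbia, Nfkbiz and Tnfaip3 lie below, and those of Rela overlap.

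Among the subunits, Rel had the largest change. Rel (ENSMUSG00000020275, chr11:23736847-23770970, minus strand, GRCm38) encodes c-Rel, a transactivating subunit prominent in lymphoid and myeloid cells. Its level was 721, 592 and 510 CPM in PBS replicates 1 to 3 and 236, 145 and 182 CPM in WGP replicates 1 to 3. Every WGP library was below every PBS library, and PBS replicate 1, which had the highest B cell marker sum, had the highest value. Rel fell from 608 ± 107 to 188 ± 45.7 CPM (SD, n = 3), which is -1.70 on the log2 scale (SE 0.21, edgeR adjusted p = 0.000405). Without PBS replicate 1 the log2 fold change was -1.56. Rela (ENSMUSG00000024927, chr19:5637483-5648130, plus strand) encodes p65, the main transactivating partner of p50. Rela was measured at 204, 208 and 212 CPM in the PBS libraries and at 243, 247 and 206 CPM in the WGP libraries. WGP replicate 3 lay within the PBS range and the other WGP libraries lay above it. The log2 fold change of Rela was 0.16 (SE 0.14, edgeR adjusted p = 0.511). Library totals only gave 0.05 for Rela, and leaving out WGP replicate 3 gave 0.23. The linear ratio of Rel to Rela, per kilobase of exons, went from 1.20 in the PBS libraries to 0.335 in the WGP libraries.

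Both subunit genes of the alternative arm rose. Nfkb2 (ENSMUSG00000025225, chr19:46304320-46312385, plus strand), which encodes p100 and its product p52, was at 166, 174 and 151 CPM in PBS replicates 1 to 3 and at 379, 364 and 307 CPM in WGP replicates 1 to 3. The lowest WGP library lay well above the highest PBS library. Nfkb2 rose 2.14-fold, or by 1.10 on the log2 scale (SE 0.15, edgeR adjusted p = 0.000671), and by 0.99 with library totals only. Relb (ENSMUSG00000002983, chr7:19606217-19629438, minus strand), whose product is the usual partner of p52, was at 94.0, 69.3 and 57.8 CPM in the PBS libraries and at 158, 137 and 162 CPM in the WGP libraries. PBS replicate 1 was the highest of the PBS libraries and still below all WGP libraries. Relb rose 2.07-fold, with a log2 fold change of 1.05 (SE 0.19, edgeR adjusted p = 0.0043). This call was lost with a covariate for Y-linked counts (log2 fold change 0.70, adjusted p = 0.0535), a fit in which PBS replicate 1 is the only PBS library to share the covariate level of the WGP libraries. Without PBS replicate 1 the value was 1.26. Nfkb1 (ENSMUSG00000028163, chr3:135584655-135691547, minus strand) encodes p105, the precursor of p50. Its level was 346, 291 and 234 CPM in the PBS libraries and 401, 436 and 375 CPM in the WGP libraries, so the groups did not overlap. The difference of 0.48 on the log2 scale (SE 0.17) did not pass edgeR's test (adjusted p = 0.0925). Nfkb1 passed with the Wald test of DESeq2 (adjusted p = 0.0394) and in edgeR without PBS replicate 1 (log2 fold change 0.62, adjusted p = 0.0192), and its value was 0.23 with the Y-linked covariate, within a range of adjusted p from 0.0192 to 0.535 over 14 alternatives.

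The changes altered the makeup of the subunit transcripts. As a share of the summed CPM per kilobase of merged exons of the 5 subunits, Nfkb2 and Relb together made up 24.0%, 24.6% and 23.4% in PBS replicates 1 to 3 and 46.1%, 45.8% and 47.0% in WGP replicates 1 to 3. The 3 libraries of a group lay within a range far narrower than the gap between the groups. The mean share went from 24.0 ± 0.599% to 46.3 ± 0.649% (SD, n = 3), a difference of 22.3 percentage points with an exact two-sided permutation p of 0.1, the smallest that 3 libraries against 3 allow. Rel made up 38.3%, 34.9% and 33.4% in the PBS libraries and 11.8%, 7.74% and 10.6% in the WGP libraries. It went from the highest mean share in the PBS libraries (35.5%) to the lowest in the WGP libraries (10.03%). In PBS replicate 3, however, the share of Rela (33.8%) was slightly above that of Rel (33.4%). The mean share of Rela was 30.0% in the PBS and 30.2% in the WGP libraries (exact permutation p = 1.0, n = 3). The mean share of Nfkb2 was 15.7% in PBS and 30.5% in WGP libraries, Relb 8.24% and 15.8%, and Nfkb1 10.5% and 13.4%. The shares depend on the length by which counts are divided. With the longest coding transcript in place of merged exons, a length chosen after seeing the data, the mean share of Nfkb2 and Relb was 24.9% in the PBS and 43.4% in the WGP libraries, that of Rel 26.6% and 6.80%, that of Rela 25.5% and 23.1%, and that of Nfkb1 23.0% and 26.6%. The summed level of the 5 subunits averaged 228 ± 23.7 CPM per kilobase with PBS and 250 ± 18.02 with WGP (exact permutation p = 0.3, n = 3).

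**Figure D2:**
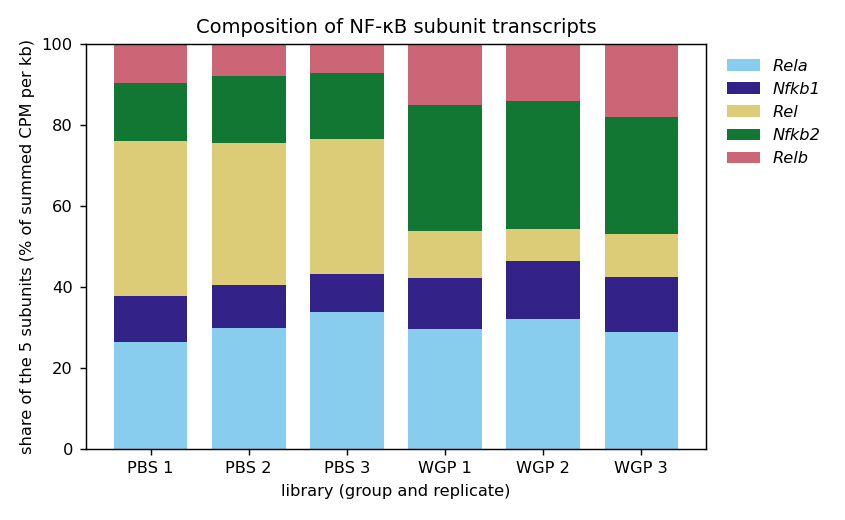
Share of each subunit gene in the summed CPM per kilobase of merged exons of the 5 NF-κB subunits, in percent, with 1 stacked bar per library. Nfkb2 and Relb together take up between 23.4% and 24.6% in the PBS libraries and between 45.8% and 47.0% in the WGP libraries.

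The inhibitor genes moved in both directions. Nfkbia (ENSMUSG00000021025, chr12:55489410-55492647, minus strand) encodes IκBα, the inhibitor that is rapidly degraded and resynthesised in the canonical response. It was at 975, 1017 and 833 CPM in PBS replicates 1 to 3 and at 649, 600 and 541 CPM in WGP replicates 1 to 3. All WGP libraries were below all PBS libraries. Nfkbia fell to 0.634 of its PBS level, with a log2 fold change of -0.66 (SE 0.15, edgeR adjusted p = 0.0146). The call was lost without PBS replicate 2 (log2 fold change -0.60, adjusted p = 0.0787) and without WGP replicate 3 (-0.59, adjusted p = 0.0806). Nfkbie (ENSMUSG00000023947, chr17:45555703-45563169, plus strand) encodes IκBε, another cytoplasmic inhibitor. It was at 103, 81.8 and 61.5 CPM in the PBS libraries and at 273, 213 and 194 CPM in the WGP libraries. WGP replicate 3, the lowest of its group, was still above PBS replicate 1. Nfkbie rose 2.76-fold, with a log2 fold change of 1.46 (SE 0.21, edgeR adjusted p = 0.0011). Per kilobase of exons, the linear ratio of Nfkbie to Nfkbia went from 0.0458 to 0.200, and Nfkbia was the more abundant of the pair in every library.

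Nfkbiz (ENSMUSG00000035356, chr16:55811375-55838899, minus strand) encodes IκBζ, a nuclear member of the IκB family that acts as a cofactor at a subset of target genes. It was at 956, 1245 and 1250 CPM in PBS replicates 1 to 3 and at 504, 300 and 383 CPM in WGP replicates 1 to 3. The highest WGP library was WGP replicate 1, and it was below the lowest PBS library, PBS replicate 1. The log2 fold change of Nfkbiz was -1.54 (SE 0.21, edgeR adjusted p = 0.000755). Of the other IκB genes, Bcl3, which encodes a nuclear IκB protein that binds p50 and p52 dimers, rose from 56.5 ± 7.38 to 191 ± 55.1 CPM (n = 3), which is 1.76 on the log2 scale (edgeR adjusted p = 0.000529). Nfkbid (log2 fold change -0.50) and Nfkbib (0.03) were not called, and their groups overlapped. The value of Nfkbid was -0.25 without PBS replicate 1 and -0.32 without WGP replicate 2, and it passed with the Y-linked covariate (log2 fold change -0.89, adjusted p = 0.0391), within a range of adjusted p from 0.0391 to 0.471 over the alternatives. The summed level of the cytoplasmic inhibitors Nfkbia and Nfkbie, as a linear ratio to that of the 5 subunits per kilobase, was 2.53, 2.90 and 2.63 in the PBS libraries and 1.84, 1.77 and 1.73 in the WGP libraries. The mean log2 ratio was lower in the WGP libraries by -0.59 (exact permutation p = 0.1, the smallest possible with n = 3 in each group). It differed by -0.30 when counts were not divided by length, and by -0.70 with the length of the longest coding transcript.

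Ikbke had the smallest p value of the 10 genes. Ikbke (ENSMUSG00000042349, chr1:131254343-131279606, minus strand) encodes IKKε, a kinase related to the IκB kinases that acts with TBK1 on interferon regulatory factors as well as in NF-κB signalling. It was at 57.1, 54.0 and 47.2 CPM in PBS replicates 1 to 3 and at 455, 452 and 499 CPM in WGP replicates 1 to 3. The spread within each group was small against the gap between them. Ikbke rose 8.88-fold, with a log2 fold change of 3.15 (SE 0.15, edgeR adjusted p = 3.69e-06). Each of the 14 alternatives kept the call, with log2 values between 3.04 and 3.21. In the annotation the exons of Ikbke overlap the antisense genes Gm28913 and Gm28914, and those of Nfkb2 overlap Psd and AC114539.1 on the opposite strand. The strand setting of the counting is not given in the sources used here, so reads of such pairs cannot be told apart.

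Tnfaip3 (ENSMUSG00000019850, chr10:19000910-19015657, minus strand) encodes A20, which edits ubiquitin chains and restrains signalling to the IκB kinases. It was at 910, 956 and 837 CPM in PBS replicates 1 to 3 and at 737, 522 and 484 CPM in WGP replicates 1 to 3. WGP replicate 1 was the closest to the PBS libraries, and the groups did not overlap. The log2 fold change of Tnfaip3 was -0.63 (SE 0.18, edgeR adjusted p = 0.0424), the weakest of the 8 calls. The call was lost without PBS replicate 2 (log2 fold change -0.59, adjusted p = 0.150), without PBS replicate 3 (-0.68, adjusted p = 0.0613), without WGP replicate 2 (-0.56, adjusted p = 0.115) and without WGP replicate 3 (-0.52, adjusted p = 0.170). It was also lost with the Y-linked covariate (-0.65, adjusted p = 0.109). Genes of the dissociation response, of which Fos was the most abundant over all 6 libraries, were measured beside these inhibitor genes. Of the 12 genes 7 were called lower and 1 higher, 4 including Fos were not called, and they summed to 28167, 33367 and 25732 CPM in the PBS libraries and 14602, 10109 and 13460 CPM in the WGP libraries. Their part in the lower levels of Nfkbia, Nfkbiz and Tnfaip3 was not tested.

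Levels of different genes were compared per kilobase of merged exons. In the PBS libraries the order was Nfkbia (585 CPM per kilobase), Nfkbiz (229), Tnfaip3 (125), Rel (81.4) and Rela (67.8), followed by Nfkb2 (35.7), Nfkbie (26.9), Nfkb1 (24.1), Relb (19.0) and Ikbke (5.85). The libraries of Rel and Rela overlapped, as did those of each neighbouring pair from Nfkb2 to Relb. In the WGP libraries Nfkbia again came first (371 CPM per kilobase), and Tnfaip3 (80.4), Nfkbiz (78.8), Nfkb2 (76.4), Rela (75.5) and Nfkbie (74.4) followed at levels whose libraries overlapped from each gene to the next. Ikbke (52.0 CPM per kilobase), Relb (39.3), Nfkb1 (33.5) and Rel (25.1) came last, and the libraries of Relb and Nfkb1 overlapped, as did those of Nfkb1 and Rel. With the length of the longest coding transcript, the first 5 places in the PBS libraries, the last place of Ikbke there, and the first place of Nfkbia and the last of Rel in the WGP libraries were the same. Relb also kept place 9 in the PBS libraries and Nfkbie place 6 in the WGP libraries. The remaining places changed, and Ikbke then ranked 2 in the WGP libraries, with 144 CPM per kilobase. The summed CPM of the 10 genes went from 4532, 4688 and 4194 in the PBS libraries to 4035, 3416 and 3335 in the WGP libraries.

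The profiles of the genes over the 6 libraries were compared by the mean absolute difference of log2(CPM + 1), each gene centred on its own mean, among 11681 genes with a mean of at least 1 CPM. Among the 10 genes the closest pair was Nfkbia and Tnfaip3, at a distance of 0.10. Rel was nearest to Nfkbiz (0.20), and Nfkb2 and Relb were nearest to each other (0.21), as were Nfkb1 and Rela (0.21). Nfkbie was nearest to Relb (0.24). Ikbke had no close neighbour among the members, with Nfkbie the nearest at 0.83. Over all genes compared, genes close to Ikbke were Plekhg4 (0.12), Gpr15 (0.14) and C3 (0.15). C3 had a log2 fold change of 3.37. Plekhg4 and Gpr15 were almost absent from the PBS libraries, at no more than 0.077 CPM and at 0 CPM, and reached between 6.35 and 8.03 CPM and between 5.18 and 7.09 CPM in the WGP libraries, so their closeness rests on the 1 CPM added before the logarithm. The genes closest to Relb were Msrb1 (0.07), Cnnm4 (0.09), H2-Q4 (0.09) and Isg20 (0.09).

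The kinases upstream of the IκB proteins were also measured. Of 10 genes of the IKK complex and its upstream kinases 1 was called higher and 1 lower, against 14.4% over all genes tested, with a median log2 fold change of 0.14. Tbk1, which encodes the kinase most closely related to IKKε, was at 72.9, 77.6 and 81.9 CPM in PBS replicates 1 to 3 and at 129, 128 and 124 CPM in WGP replicates 1 to 3. The groups were clearly separate, and the log2 fold change of 0.71 (edgeR adjusted p = 0.00534) was small beside the 3.15 of Ikbke. Map3k8, which encodes TPL2, a kinase held in complex with p105, had a log2 fold change of -1.10 (edgeR adjusted p = 0.00462). Chuk (log2 fold change 0.25), Ikbkb (0.30) and Ikbkg (0.39), the genes of the classical IκB kinase complex, were not called. With single libraries left out, values ranged from 0.136 to 0.388 for Chuk, from 0.221 to 0.395 for Ikbkb and from 0.282 to 0.604 for Ikbkg. The Y-linked covariate gave 0.0107 for Chuk. Map3k14, which encodes NIK, the kinase that starts p100 processing, was at 85.5 ± 13.4 CPM in the PBS and 87.2 ± 11.1 CPM in the WGP libraries (n = 3), and its log2 fold change of 0.03 was not called.

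Receptors that feed the alternative arm were called in both directions. Of 6 genes 3 were called higher and 2 lower, against 14.4% called over all genes tested. Ltbr, the lymphotoxin β receptor gene, rose from 70.5 ± 10.04 to 123 ± 4.58 CPM (n = 3), which is 0.80 on the log2 scale (edgeR adjusted p = 0.00562). Cd40 (log2 fold change 1.15) and Tnfrsf1b (1.52), which encodes the TNF receptor TNFR2, also rose. Tnfrsf13c, which encodes the BAFF receptor of B cells, was at 135, 28.4 and 14.1 CPM in PBS replicates 1 to 3 and at 5.70, 9.12 and 2.44 CPM in WGP replicates 1 to 3, with its highest value in the library with the highest B cell marker sum. Its log2 fold change was -3.36 (edgeR adjusted p = 0.0161), and -1.89 without PBS replicate 1. The call of Tnfrsf13c was lost without WGP replicate 1 (log2 fold change -3.35, adjusted p = 0.0654), without WGP replicate 3 (-2.99, adjusted p = 0.0626) and with limma-voom (-2.89, adjusted p = 0.165). Tnfrsf12a, which encodes the TWEAK receptor, had a log2 fold change of -2.35 (edgeR adjusted p = 0.00558). Tnfrsf11a, which encodes RANK, had one of -0.66 and was not called (edgeR adjusted p = 0.0547). It passed with library totals only (log2 fold change -0.75, adjusted p = 0.0230), with the Wald test of DESeq2 (-0.66, adjusted p = 0.0321) and without PBS replicate 1 (-0.82, adjusted p = 0.0115), and its value was -0.28 with the Y-linked covariate.

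Of 23 adaptor and ubiquitin ligase genes 9 were called higher and none lower, against 7.54% and 6.81% of all genes tested, with a median log2 fold change of 0.58. None was lower in edgeR at an unadjusted p under 0.05, and DESeq2 and limma-voom called none lower either. The number called higher was 4 with library totals only, 4 with the Y-linked covariate, 4 without PBS replicate 2, 5 without PBS replicate 3, 4 without WGP replicate 1 and 4 without WGP replicate 3. Irak3, which encodes the inhibitory kinase homologue IRAK-M, had a log2 fold change of 1.54 (edgeR adjusted p = 0.000187). Traf1 (log2 fold change 1.30), Myd88 (1.16), the adaptor of Toll-like receptors, and Birc3 (0.67), which encodes the ubiquitin ligase cIAP2, were the others with the smallest p values, and the call of Birc3 was lost with the Y-linked covariate (log2 fold change 0.60, adjusted p = 0.0600). Of 16 ubiquitin editors and other brakes 4 were called higher and 2 lower, against the same background, with a median log2 fold change of 0.16. The 2 called lower, named after their values were seen, were Otud7b (log2 fold change -0.98), which encodes a deubiquitinase, and Pdlim2 (-0.64), which encodes a ubiquitin ligase for p65. None of the 16 was called lower without PBS replicate 2, without PBS replicate 3 or without WGP replicate 1, and 1 was called lower without WGP replicate 2 and without WGP replicate 3. Unlike Tnfaip3, Tnip1, the gene of an A20-binding protein, rose with a log2 fold change of 1.74, and Tnip3, a related gene, with one of 1.62, a call lost without WGP replicate 1 (log2 fold change 1.55, adjusted p = 0.0533), and 2.75 with the Y-linked covariate. N4bp1 (log2 fold change 2.02) and Tax1bp1 (0.83), which encodes another A20 partner, rose as well.

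The 38 NF-κB target genes rose more often than they fell, in a list chosen with earlier results of these data known. The numbers called therefore describe this list only. Of the 38 genes 21 were called higher and 5 lower, against 7.54% and 6.81% of all genes tested, with a median log2 fold change of 1.42. Nos2, at 0 in every PBS library, was also set at the lower bound that a floor of 3 counts over the group gives. The median was the same, which it must be while Nos2 stays above it. The number called lower was 2 without PBS replicate 2, 3 without WGP replicate 1 and 2 without WGP replicate 3. Their summed level was 5305, 5551 and 5390 CPM in PBS replicates 1 to 3 and 14456, 14267 and 12774 CPM in WGP replicates 1 to 3. Il1b was the most abundant over both groups together, though not in the PBS libraries alone. Tnfaip2, a TNF-inducible gene, rose 14.1-fold, from 128 ± 6.22 to 1813 ± 89.2 CPM (n = 3, edgeR adjusted p = 2.90e-06). Ptgs2, which encodes cyclooxygenase-2, had a log2 fold change of 3.02, Slc2a6, a sugar transporter gene, one of 2.54, and Csf1, the gene of macrophage colony-stimulating factor, one of 2.40. The Bcl2a1a, Bcl2a1b and Bcl2a1d genes in this list are near-identical copies whose counts are uncertain. The 5 target genes called lower, named after their values were seen, were the chemokine genes Ccl4 (log2 fold change -1.43, edgeR adjusted p = 0.000113), Ccl2 (-1.25) and Ccl3 (-0.89), the cytokine gene Tnf (-0.58) and Cd83 (-1.06), which encodes a surface protein of activated cells. Ccl4 kept its call in all 14 alternatives, and the other 4 lost theirs in at least 1, among them Ccl2 with the Y-linked covariate (log2 fold change -0.45, adjusted p = 0.287). The summed level of the target genes was higher in each WGP library than in any PBS library. Nfkbia and Tnfaip3, feedback inhibitors that are themselves NF-κB targets, were lower in each, as were these 5 target genes. The dissociation response genes, of which 7 of 12 were called lower, also had a lower sum in each WGP library, and their part in the levels of these 5 target genes was not tested. Resident macrophage and Ly6C-high monocyte markers also differed between the groups. Their part in the 21 target genes called higher was not tested either.

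**Figure D3:**
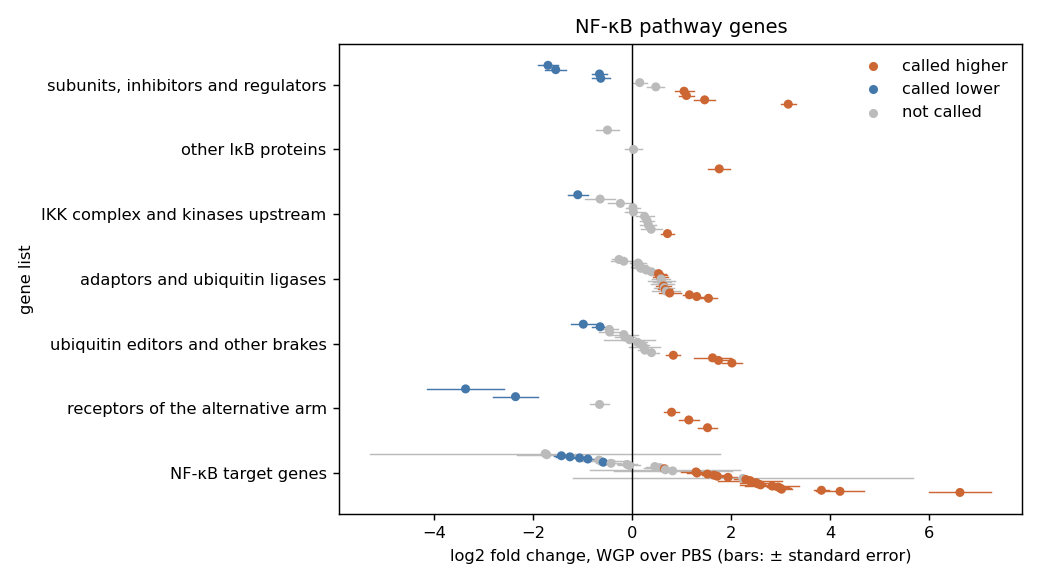
Log2 fold change of WGP over PBS for the 10 NF-κB genes and 6 lists of pathway genes, with 1 point per gene, bars of ± 1 standard error from edgeR, and colours for genes called higher (orange), called lower (blue) or not called (grey). Nos2, at 0 counts in every PBS library, is left out, and the target genes reach further to the right than the IKK complex and its upstream kinases, which span -1.10 to 0.71.

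Promoter windows of 250 bases before to 50 bases after the transcription start were taken from RefSeq (GRCm38.p6) for 7 of the 10 genes, which had 10 windows, and Nfkb1, Relb and Nfkbiz had no entry. Each was searched on both strands for the κB consensus, the 10-base motif bound by NF-κB dimers. The motif was found in 7 of the 10 windows and for 5 of the 7 genes, against 4.51% of all 32851 windows in the table, and the windows of Ikbke and Rela held no match. The 4.51% is a share of windows, not of genes. Several of the windows were of Nfkb2, and neighbouring Nfkb2 windows overlapped, so that the same match was counted in both. Genes with a match included Nfkb2 and Nfkbie, which rose, and Rel, Nfkbia and Tnfaip3, which fell. The matches upstream of the first RefSeq start are printed because they lie before starts of NF-κB genes that moved in opposite directions, with the match in capitals, in the direction of the gene.
Nfkb2, chr19:46304689-46304717, plus strand: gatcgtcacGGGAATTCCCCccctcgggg
Nfkb2, chr19:46304717-46304736, plus strand: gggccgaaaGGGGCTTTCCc
Nfkbie, chr17:45555569-45555628, plus strand: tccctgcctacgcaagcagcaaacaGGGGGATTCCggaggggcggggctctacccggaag
Rel, chr11:23771026-23771086, minus strand: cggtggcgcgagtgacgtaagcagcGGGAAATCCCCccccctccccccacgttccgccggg
Nfkbia, chr12:55492648-55492701, minus strand: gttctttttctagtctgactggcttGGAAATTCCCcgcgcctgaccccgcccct
Tnfaip3, chr10:19015517-19015544, minus strand: actcacgcgGGGACACCCCggggcggga
Tnfaip3, chr10:19015411-19015447, minus strand: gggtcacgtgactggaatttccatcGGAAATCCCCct
The 11 capitals of Rel and of the first Nfkb2 stretch hold 2 overlapping matches. The first of these fits the consensus on both strands and the second only on the strand opposite the gene. The match began 29 bases upstream of the start in Nfkbia, 92 in Rel, 106 in Nfkbie and 39 in the first Nfkb2 stretch. The first Nfkb2 window held 3 matches, a number reached by 0.0517% of all windows, and no window of the other 6 genes searched held 3 or more. In GENCODE vM21 some transcripts start further upstream, so that both printed Nfkb2 stretches lie in the first exon of a longer Nfkb2 transcript and in an exon of AC114539.1, and both Tnfaip3 stretches in an intron of a longer Tnfaip3 transcript. The stretches of Rel, Nfkbia and Nfkbie lie in no annotated exon. These matches describe the sequence, and binding was not measured.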

How the data were processed

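Polyadenylated RNA of sorted CD45+CD11b+ pancreatic cells was sequenced in 3 PBS and 3 WGP libraries. STAR 2.6 aligned the single-end reads to mm10 (GRCm38.p6), HTSeq 0.10.0 gave counts for each Ensembl gene, and the authors deposited these raw counts unnormalized. The annotation release, the strand setting and the handling of duplicate reads are not given in the sources used here. Total counts ranged from 35334645 to 43341834. Of the 21780 gene IDs 21754 matched GENCODE vM21, and 21700 were protein-coding. Those whose RLE-normalized counts added up to 10 or more were tested with edgeR 4.0.16 in R 4.3.3, as a quasi-likelihood test after TMM normalization. Its recovery of known fold changes was checked on simulated counts. The standard error is the absolute log2 fold change divided by the square root of F. Exon lengths are those of merged exons in GENCODE vM21. Composition measures were compared with exact two-sided permutation tests.

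The genes examined and the lists of pathway and marker genes were chosen with earlier results of these data known. Named genes are the 10 NF-κB genes, those of the other pathway lists with the 4 smallest p values (lists of up to 10 genes allow any of theirs), the nearest profiles and the most abundant marker of a list over both groups together. The Y-linked genes and the genes overlapping exons of the NF-κB genes are named too. Nos2, the Bcl2a1 copies and the target genes and ubiquitin editors called lower were named after their values were seen. So were F13a1 and the further neutrophil and endothelial markers. Of the nearest profiles, 1 gene is not reported here. Alternatives were scaling by library totals only or by RLE size factors, DESeq2 1.42.0 (Wald test) and limma-voom (limma 3.58.1) as tests, filters of at least 1 count in any library or filterByExpr, the replicate number as a block, a covariate for Y-linked counts, each library left out in turn, and other lengths for composition measures.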

Additional observations from a re-analysis of the deposited data

How the results depend on the processing

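Nfkb2, Rel, Nfkbie, Nfkbiz and Ikbke kept their direction and their call under all 14 alternatives, and Rela kept its direction and was called under none. The DESeq2 Wald test called Nfkb1 (log2 fold change 0.47). The Y-linked covariate ended the calls of Relb (0.70) and Tnfaip3 (-0.65), raised the other IκB genes called lower from 0 to 1, lowered the adaptors called higher from 9 to 4 and left 0 of the ubiquitin editors called lower. Library totals only gave 4 adaptors called higher. Limma-voom called 1 receptor of the alternative arm lower. Leaving out each library in turn gave log2 fold changes from 0.35 to 0.62 for Nfkb1, from -0.74 to -0.59 for Nfkbia and from -0.84 to -0.52 for Tnfaip3. It gave from 643 to 1051 of all genes called lower, from 2 to 4 of the 10 NF-κB genes called lower, from 4 to 10 adaptors called higher, from 0 to 2 ubiquitin editors called lower, from 1 to 3 receptors called lower and from 2 to 7 target genes called lower. These fits had fewer libraries. The share of Nfkb2 and Relb differed by 20.2 percentage points without division by length and by 18.5 with the longest coding transcript, and the log2 ratio of inhibitors to subunits by -0.30 and -0.70. The number of target genes called higher ranged from 18 to 22 over the 14 alternatives. Among the target genes called lower, calls ended for Ccl2 with the Y-linked covariate (-0.45) and without PBS replicate 2 (-1.21), WGP replicate 1 (-1.16) or WGP replicate 3 (-1.19), for Ccl3 with the Y-linked covariate (-0.76) and without PBS replicate 2 (-0.86), for Cd83 without WGP replicate 3 (-0.94), and for Tnf with the replicate block (-0.57), without PBS replicate 2 (-0.56) and without each WGP library (from -0.61 to -0.55). Otud7b and Pdlim2 lost theirs with the Y-linked covariate (-0.91 and -0.63) and with PBS replicate 2, with PBS replicate 3 or with WGP replicate 1 removed, and Pdlim2 also with the replicate block (-0.64) and when either remaining WGP library was left out. Map3k14, Nfkbib and Tab2, none of them called, had small values that changed sign with library totals only (-0.0743, -0.0738 and -0.0837). With single libraries left out, their log2 fold changes ranged from -0.0763 to 0.159 for Map3k14, from -0.0919 to 0.178 for Nfkbib and from -0.0487 to 0.101 for Tab2. The causes were not tested.

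Libraries of the same number in the 2 groups did not deviate together (correlations across 11681 genes of 0.05, -0.08 and 0.07, genes not being independent replicates), and not every library correlated best with its own number. With the replicate number as a block 1016 genes were called higher and 931 lower, against 1088 and 983, the ubiquitin editors called lower went from 2 to 1, and the calls of the 10 NF-κB genes were the same. The share of Nfkb2 and Relb differed by 22.3 percentage points as a mean of paired differences.

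With 3 libraries in a group an exact test cannot go below 0.1, and the calls of Nfkbia, Tnfaip3 and Nfkb1 change with single libraries left out. Transcript levels say nothing of protein, of precursor processing or of nuclear entry. The sorted cells are a mixture, and the levels per cell type were not measured. Levels of genes with long or many transcripts depend on the length used.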

Other observations

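The other marker lists covered further myeloid cells, lymphocytes and cells of the pancreas itself. The 7 acinar cell markers in the table were all called lower, and they summed to 1793, 4396 and 1066 CPM in PBS replicates 1 to 3 and 335, 522 and 283 CPM in WGP replicates 1 to 3. Pnlip was the most abundant over both groups together, though not in the WGP libraries alone. Of the 8 neutrophil markers 2, Csf3r and Cxcr2, were called higher. The other 6 had log2 fold changes below 0 and were not called, Retnlg (-0.87) and Camp (-1.25) at an unadjusted p under 0.05, and the median over the list was -0.75. The sums were 3953, 2114 and 1294 CPM in the PBS libraries and 2066, 2027 and 2081 CPM in the WGP libraries. S100a9 was the most abundant over both groups together, whereas Csf3r was in the WGP libraries (mean 791 CPM, against 531 CPM for S100a9). Of the 10 conventional dendritic cell markers 1 was called lower, with sums between 193 and 365 CPM. Fscn1 was the most abundant over both groups together, though not in the PBS libraries alone. Of the 7 eosinophil markers 1 was called lower, with sums between 34.0 and 108 CPM and Ear2 the most abundant. T cell markers (7 genes, 1 called higher, Cd4 the most abundant) summed to at most 52.6 CPM. NK cell markers (7 genes, 1 called lower, Gzma the most abundant) summed to between 41.2 and 207 CPM, and endothelial markers (6 genes, 2 called higher, Flt1 the most abundant) to 22.2, 28.0 and 13.7 CPM in the PBS libraries and 110, 123 and 123 CPM in the WGP libraries. The endothelial sum was mostly Flt1 (means of 11.5 and 89.8 CPM) and Kdr (4.51 and 25.9 CPM), the 2 called, while Cdh5 (log2 fold change -1.21) and Tie1 (-1.73) were not called and Tie1, Emcn and Cldn5 had means under 1 CPM in both groups. The part of these cells in the levels of the NF-κB genes was not tested.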
